A study of Mus musculus with 14 samples.

Results

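Fibroblasts given a hairpin against Ctns together with a CTNS plasmid (rescue) were compared with untreated fibroblasts, to ask which transcripts still differed from the untreated state when the plasmid was present. The comparison takes in 4 of the 14 libraries of the series, 2 labelled rescue and 2 of the untreated group labelled NT2, and was read over all 1399 transcripts that the deposited tables list. All libraries came from mouse embryonic fibroblasts (MEF cells), connective tissue cells grown in culture, with the genotype given as WT. The rescue cells carried sh-CTNS, a short hairpin RNA, and a CTNS plasmid. The 2 knockdown libraries, from cells transfected with sh-CTNS alone, are set beside them throughout. NT2 received no treatment: no empty plasmid or scrambled hairpin is named for it, so transfection and its cargo cannot be told apart in these groups. The labels do not say from which species the plasmid's CTNS came. They also do not say which of the series' 2 untreated groups, NT or NT2, belongs to these treatments; NT2 was taken because its columns are named in the style of the rescue and knockdown columns. The libraries are not said to be separate cultures, so p-values measure the spread between libraries, which may be technical. Ctns itself is not among the listed transcripts, and its knockdown and re-expression were not analysed here.

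Cystinosin, the product of Ctns, is a proton-coupled transporter of the lysosomal membrane that exports cystine, the oxidised pair of cysteine residues released when proteins are degraded. Its loss causes cystinosis, in which cystine builds up in lysosomes. Fibroblasts make and organise the extracellular matrix, and their transcriptomes are rich in collagens, fibronectin and the actin cytoskeleton.

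Each level below is in CPM, a transcript's count relative to all counts over the listed transcripts, with library sizes adjusted by edgeR's TMM factors; levels of transcripts of different length are not compared. The untreated libraries held 165747 and 132998 counts, the knockdown libraries 98481 and 79630, and the rescue libraries 87972 and 64530. The 2 libraries of a group ranked the transcripts alike, with a Spearman correlation across transcripts, which are not independent replicates, of 0.976 in NT2, 0.936 in knockdown and 0.912 in rescue. Fibroblast markers were present: 9 of 16 were listed, and their summed level was 53781 and 49126 CPM in NT2, 15108 and 15192 CPM in knockdown, and 26478 and 25141 CPM in rescue. No marker of immune or neural cells was listed, and 1 each of the epithelial (Cdh1), muscle (Ttn), pancreas and liver (Ctrb1) and endothelial (Flt1) lists was. In bulk RNA, fewer cells of a type and less RNA per cell cannot be told apart.

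One set of transcripts moved with the groups as a block. The 350 transcripts called NT-high here are those whose share of counts in NT, the other untreated group, was more than 2 times the typical share relative to cysteamine-treated cells; no rescue, knockdown or NT2 library entered that rule. They held 11.9% and 11.7% of the counts in NT2, 32.3% and 31.9% in knockdown, and 41.5% and 39.3% in rescue. In the NT libraries they held 64.6% and 86.8%. The plot of their share by library shows that the rescue bars stood highest of the 4 groups fitted. Counts of members are given below with and without these transcripts; why their share differs was not tested.

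**Figure D1:**
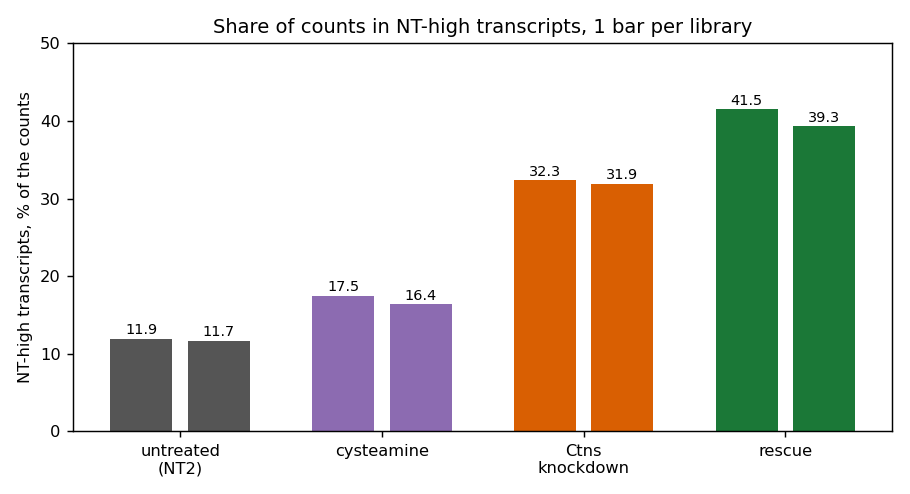
Share of each library's counts held by the 350 NT-high transcripts, in percent, with 1 bar per library for NT2, cysteamine, knockdown and rescue. The NT2 bars stand at 11.9% and 11.7% and the rescue bars at 41.5% and 39.3%.

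In rescue against NT2, 279 transcripts rose (19.9% of 1399) and 299 fell (21.4%) in edgeR's quasi-likelihood test (adjusted p by the Benjamini-Hochberg method), 41.3% in all. In every one of these 578 the rescue libraries lay wholly above or wholly below the NT2 libraries, as they did in 964 transcripts (68.9%) overall. The NT-high transcripts gave most of the rises, 194 of 350 (55.4%) against 14 falls (4%). Among the other 1049 transcripts 85 rose (8.1%) and 285 fell (27.2%), with a median log2 fold change of -0.27. With the NT-high transcripts left out and the rest scaled again, 154 rose and 161 fell, and the median was -0.00. Scaling by total counts shifted the median of all transcripts by -0.24 and gave 220 rises and 459 falls, 32.4% rises where TMM gave 48.3%. DESeq2 called 197 rises and 126 falls, 61.0% rises, and a fit of all 14 libraries called 261 and 180, 59.2% rises. Knockdown against NT2, which shares the NT2 libraries, had 276 rises (19.7%) and 292 falls (20.9%). The rescue libraries differed from the knockdown libraries directly in 41 rises (2.93%) and 17 falls (1.22%).

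The choice of untreated group changed more calls than any scaling tried. The NT libraries were smaller and less alike, with 33990 and 25697 counts and a Spearman correlation of 0.556, against 0.976 in NT2. Whether a call lost against NT reflects this or a different level was not tested. With NT in place of NT2, in a fit of all 14 libraries, 55 transcripts rose and 100 fell, and 27 were called in the same direction as against NT2. Of the 144 transcripts named by rule, 39 had the opposite sign against NT, with a call against at least 1 of the 2 untreated groups. The 39 include NT-high transcripts, such as Luc7l2, Ctrb1 and Ttn. That set was chosen for high shares in NT, which by itself favours lower values against NT. Those that were called in the same direction against both untreated groups included Rnf213 (2.09 against NT), Sqstm1 (1.58), Fth1 (1.56), Kmt2d (1.41), Brd2 (1.22), Dync1h1 (1.43), Tenm4 (2.8), Lox (-1.32) and Col5a2 (-1.27), each value a log2 fold change. Every result below is against NT2 unless NT is named, and each difference is a log2 fold change ± standard error (SE) with edgeR's adjusted p.

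**Figure D2:**
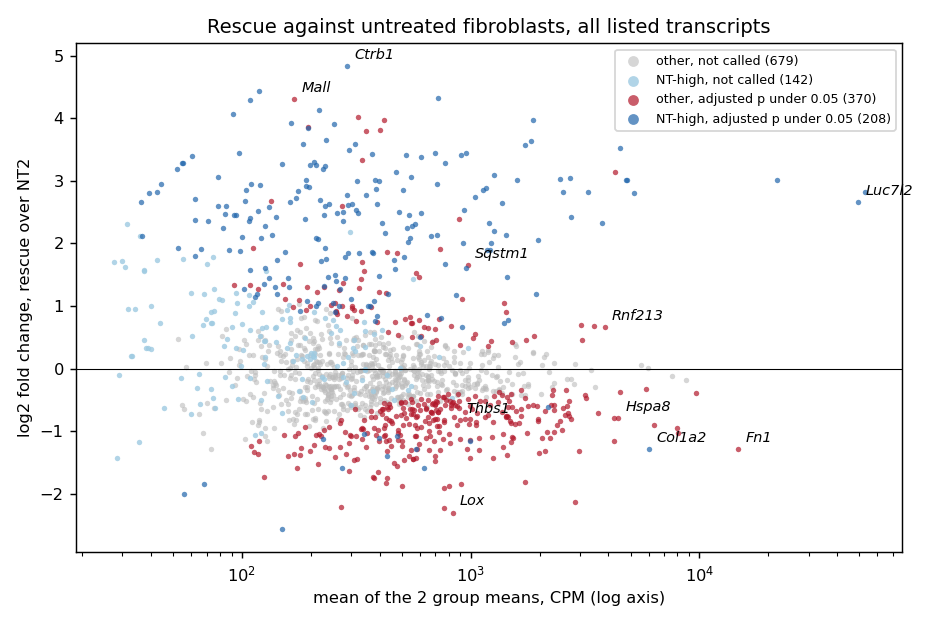
Log2 fold change of rescue over NT2 against the mean of the 2 group means in CPM (log axis), 1 point per transcript, coloured by the test and by membership of the NT-high set. Called NT-high transcripts (208, 59.4% of 350) lie mostly above 0, and the other called transcripts (370, 35.3% of 1049) lie mostly below it, with Fn1, Col1a2, Lox and Hspa8 among the labelled falls.

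Most interstitial collagen transcripts stayed low in rescue, and 5 of them were higher there than after knockdown alone. Of 13 listed genes for fibrillar and type VI collagens and the enzymes that modify collagen, 9 fell, 2 rose and 2 were not called, with a median log2 fold change of -0.69 beside -0.10 over all transcripts. Over all transcripts 21.4% fell and 19.9% rose. Knockdown had 11 falls and 1 rise, with a median of -1.57. Their summed level was 38049 and 33949 CPM in NT2, 10249 and 10701 CPM in knockdown, and 21046 and 19520 CPM in rescue. With the NT-high transcripts left out, 5 fell and 1 rose, and over all alternatives that keep NT2 as the control 5 (DESeq2) to 11 (total-count scaling) fell. Against NT 2 fell and none rose, with a median of -0.42, and Col1a2 and Col3a1 were not called (adjusted p = 0.75 and 0.47).

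Col1a2, the alpha 2 chain of type I collagen and itself an NT-high transcript, had 9338 and 7833 CPM in NT2, 1054 and 1212 CPM in knockdown and 4045 and 2933 CPM in rescue. The rescue libraries lay between the 2 other groups without overlap. Its log2 fold change was -1.29 ± 0.14 (adjusted p = 8.7e-06) over NT2 and 1.63 ± 0.16 (adjusted p = 8.2e-05) over knockdown. Col3a1, type III collagen, had 3109 and 2632 CPM in NT2, 653 and 532 CPM in knockdown and 1104 and 1141 CPM in rescue, again between the others, -1.36 ± 0.14 (adjusted p = 5.3e-06) over NT2 and 0.91 ± 0.17 (adjusted p = 0.011) over knockdown. Col1a1, the partner chain of Col1a2, came nearer to the untreated level, with 11552 and 10244 CPM in NT2, 3724 and 3625 CPM in knockdown and 8347 and 8326 CPM in rescue. Its difference from NT2 was -0.39 ± 0.09 (adjusted p = 0.0035), and its difference from knockdown was 1.18 ± 0.09 (adjusted p = 8.6e-06). The call of Col1a1 against NT2 was lost without NT2 replicate 1 (adjusted p = 0.058), with the NT-high transcripts left out (0.25) and in DESeq2 (0.16), and its log2 fold change was 0.27 against NT.

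The sequence before the start of Col1a2 is printed because this gene had the highest log2 fold change over knockdown among the 13 collagen and collagen-modifying genes. Col1a1 came nearer to the NT2 level. It was read from the RefSeq promoter table, mouse assembly GRCm38.p6, chr6:4505368-4505667, plus strand, 250 bases before to 50 bases after the gene's start; the counts were made on another assembly, GRCm39. Capitals mark the letters CCAAT, the CCAAT box, and GGGCGG, the GC box bound by Sp1-type factors, on either strand (ATTGG and CCGCCC on the other), which do not overlap here.
Col1a2: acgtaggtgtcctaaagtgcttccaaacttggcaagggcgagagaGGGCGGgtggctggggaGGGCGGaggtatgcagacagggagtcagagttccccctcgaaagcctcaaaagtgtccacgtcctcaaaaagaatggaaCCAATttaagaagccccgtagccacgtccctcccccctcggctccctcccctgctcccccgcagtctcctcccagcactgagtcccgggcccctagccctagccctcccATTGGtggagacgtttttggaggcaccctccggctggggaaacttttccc
It holds CCAAT at 2 places and GGGCGG at 2 places. Among the 32851 promoters of that table, 37.4% held CCAAT and 35.7% held GGGCGG on either strand. Among the 1358 of them that belong to listed genes, the shares were 36.2% and 67.5%.

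The other collagen genes did not all behave alike. Col5a2, a minor fibrillar chain, had 4921 and 4418 CPM in NT2, 853 and 705 CPM in knockdown and 1002 and 1141 CPM in rescue, and stayed -2.13 ± 0.13 (adjusted p = 4.9e-08) from NT2 with a difference from knockdown of 0.44 ± 0.16 (adjusted p = 0.15). Lox, the lysyl oxidase that cross-links collagen, was at 1387 and 1388 CPM in NT2, 221 and 136 CPM in knockdown and 282 and 277 CPM in rescue. It had the lowest log2 fold change outside the NT-high set, -2.30 ± 0.18 (adjusted p = 3e-07), and its difference from knockdown was not called, 0.61 ± 0.28 (adjusted p = 0.29). The type VI chains Col6a1 and Col6a2 rose over knockdown, Col6a1 from 592 and 668 CPM to 1297 and 1385 CPM (1.09 ± 0.16, adjusted p = 0.0016) where NT2 had 1427 and 1635 CPM. Col6a2 stood at 488 and 439.9 CPM in rescue and 201 and 161 CPM in knockdown (1.35 ± 0.29, adjusted p = 0.019), below the 793 and 673 CPM of NT2 (-0.66 ± 0.21, adjusted p = 0.023). Col6a3, the third chain of the same trimer, was higher in rescue than in NT2, with 950.2 and 798 CPM against 323 and 316 CPM (1.46 ± 0.24, adjusted p = 0.00023). P4ha1, a prolyl hydroxylase subunit and an NT-high transcript, rose as well (1.73 ± 0.26, adjusted p = 0.00015). Col6a2 is the fragile member: its call against NT2 was lost without NT2 replicate 1 (adjusted p = 0.16), rescue replicate 1 (0.063) or rescue replicate 2 (0.1), with the NT-high transcripts left out (0.18) and in DESeq2 (0.29). Its call against knockdown was lost without knockdown replicate 1 (0.061), knockdown replicate 2 (0.091) or rescue replicate 1 (0.12), and against NT its log2 fold change was 0.55.

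Matricellular and remodelling genes, which regulate how cells meet the matrix, gave 7 falls and 3 rises of 13 listed, with a median of -0.42 (knockdown: 9 falls, no rise, -1.57). The shares over all transcripts in rescue against NT2 were 21.4% falls and 19.9% rises. Fn1, fibronectin, had 21315 and 20482 CPM in NT2, 6274 and 6470.3 CPM in knockdown and 8552 and 8636 CPM in rescue. The rescue libraries lay above knockdown (0.43 ± 0.08, adjusted p = 0.0089) but far below NT2 (-1.28 ± 0.08, adjusted p = 3.3e-08). Sparc, a collagen-binding glycoprotein, followed the same order, with 4321 and 4143 CPM in NT2, 1034 and 1064 CPM in knockdown and 1900.5 and 1483 CPM in rescue (-1.31 ± 0.13, adjusted p = 2.6e-06 over NT2, 0.70 ± 0.15, adjusted p = 0.017 over knockdown). Timp3, a matrix-bound metalloproteinase inhibitor, had 3149 and 3037 CPM in NT2, 853 and 854 CPM in knockdown and 1695 and 1352 CPM in rescue (-1.01 ± 0.13, adjusted p = 2.9e-05 and 0.85 ± 0.15, adjusted p = 0.0068). In all 3 genes the groups formed 3 separate levels with rescue in the middle. Thbs1, thrombospondin 1, was at 1167 and 1134 CPM in NT2, 181 and 223 CPM in knockdown and 770.5 and 505 CPM in rescue (1.70 ± 0.25, adjusted p = 0.0023 over knockdown). Its difference from NT2 was -0.82 ± 0.17 (adjusted p = 0.0015), and DESeq2 gave that an adjusted p of 0.054. Igfbp4, a secreted binder of insulin-like growth factors, fell in rescue (-1.02 ± 0.12, adjusted p = 2.2e-05) and in knockdown (-1.45 ± 0.12, adjusted p = 1e-06), and the 2 were not called apart. The 3 that rose included Ltbp1, a latent TGF-beta binding protein (1.31 ± 0.28, adjusted p = 0.0022), and Postn, periostin; without NT2 replicate 2 or rescue replicate 2, 1 of the 13 rose. Against NT 1 of the 13 fell and 1 rose, with a median of -0.02, and Fn1, Sparc, Timp3, Thbs1 and Igfbp4 were not called (adjusted p = 0.62 to 0.98), nor were they with NT and NT2 averaged (0.13 to 0.24).

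Postn, an NT-high transcript, rested on few counts: 22 in the 2 NT2 libraries, 4 in knockdown and 26 in rescue. Its levels were 73.6 and 61.8 CPM in NT2, 20.1 and 24.7 CPM in knockdown and 128 and 261 CPM in rescue, so that rescue stood above both. The differences were 1.45 ± 0.43 (adjusted p = 0.016) over NT2 and 3.03 ± 0.61 (adjusted p = 0.014) over knockdown. The call over NT2 was lost without NT2 replicate 1 (adjusted p = 0.052), NT2 replicate 2 (0.069) or rescue replicate 2 (0.22), and the call over knockdown without knockdown replicate 1 (0.08), knockdown replicate 2 (0.068) or rescue replicate 2 (0.077).

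Of the 8 listed basement membrane genes 4 fell and 1 rose, with a median of -0.43 (knockdown: 7 falls, -0.70). None of the 8 was NT-high, and 27.2% of the transcripts outside that set fell and 8.1% rose. Nid2, a nidogen that links laminin to type IV collagen, had 1297 and 1127 CPM in NT2, 211 and 210.3 CPM in knockdown and 321 and 326 CPM in rescue (-1.91 ± 0.17, adjusted p = 1.4e-06 over NT2, 0.62 ± 0.26, adjusted p = 0.26 over knockdown). Nid1, its paralogue, had 798 and 625 CPM in NT2, 231 and 359 CPM in knockdown and 257 and 228 CPM in rescue (-1.55 ± 0.25, adjusted p = 0.00021), and its rescue and knockdown libraries overlapped. The laminin chains Lamb1 (-0.67 ± 0.18, adjusted p = 0.0091) and Lamc1 (-0.63 ± 0.17, adjusted p = 0.0085) were also called lower. Col4a2, a type IV collagen chain, was the 1 that rose, with 1900.5 and 1580.5 CPM in rescue against 1353 and 1250.5 CPM in NT2 (0.42 ± 0.13, adjusted p = 0.017) and 1104 and 1113 CPM in knockdown (0.66 ± 0.14, adjusted p = 0.017). With the NT-high transcripts left out 2 of the 8 fell and 2 rose, and against NT none was called. The nidogen calls held with the NT-high transcripts left out; those of Lamb1 (adjusted p = 0.14) and Lamc1 (0.13) did not. Without 1 library, calls were lost for Col4a2 (rescue replicate 1, 0.27; NT2 replicate 2, 0.083), Lamc1 (NT2 replicate 1, 0.059; rescue replicate 1, 0.1) and Lamb1 (rescue replicate 2, 0.085).

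**Figure D3:**
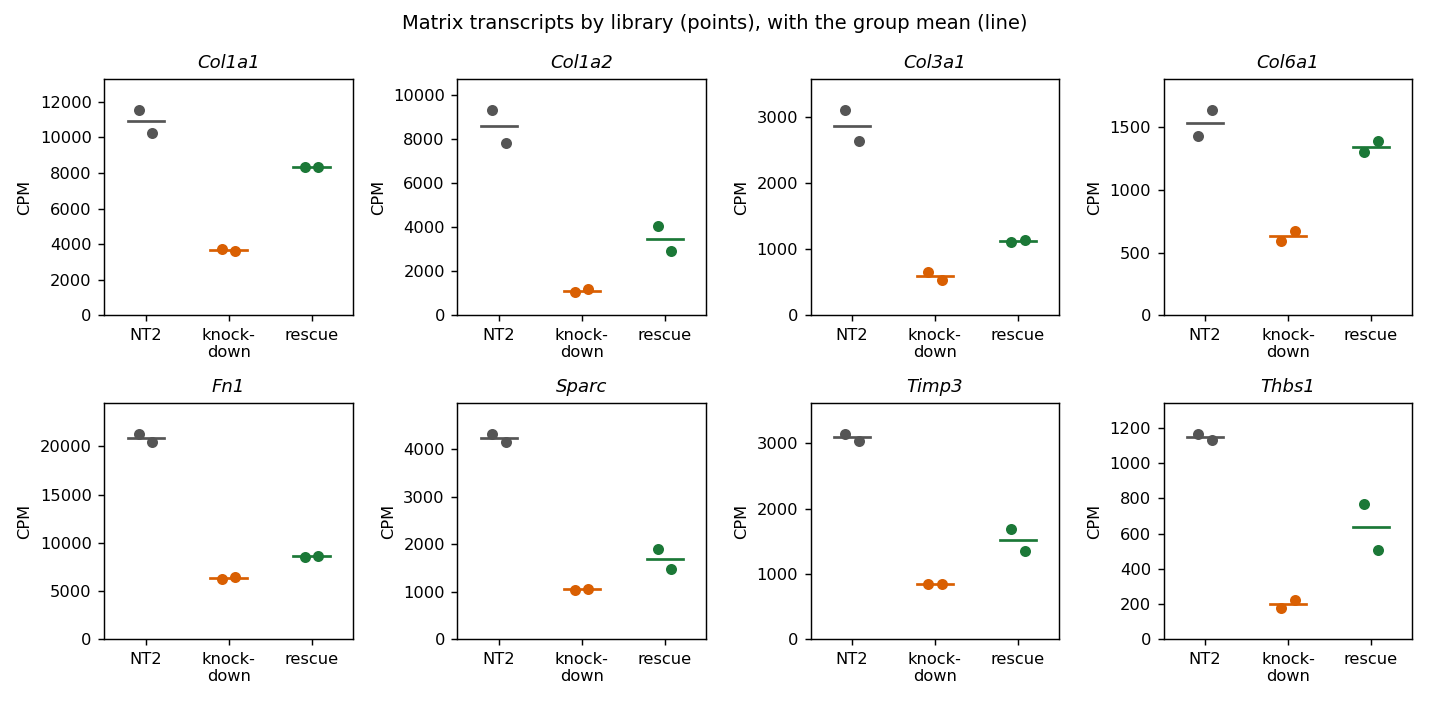
Levels of 8 matrix transcripts in CPM on linear axes from 0, with 1 point per library and a line at the group mean, for NT2, knockdown and rescue. Rescue lies between the other groups for Col1a2, Col3a1, Fn1, Sparc, Timp3 and Thbs1, close to NT2 for Col6a1, and nearer to NT2 than to knockdown for Col1a1.

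Contractile, adhesion and YAP target genes, the actin machinery through which fibroblasts pull on matrix, gave 14 falls and 1 rise of 26, with a median of -0.52 (knockdown: 16 falls, 3 rises, -0.71). None of the 26 was NT-high, and 27.2% of the transcripts outside that set fell and 8.1% rose. With the NT-high transcripts left out, 10 fell and 6 rose; the fit of all 14 libraries called 4 falls and total-count scaling 19. Actb, cytoplasmic beta-actin, had 8619 and 7888 CPM in NT2, 4818 and 4949 CPM in knockdown and 4699.8 and 4139 CPM in rescue. Rescue and knockdown both lay under NT2 (-0.90 ± 0.10, adjusted p = 6.8e-06 and -0.76 ± 0.09, adjusted p = 2.8e-05). Zyx, the focal adhesion protein zyxin, was at 1336 and 1402 CPM in NT2, 803 and 755 CPM in knockdown and 616 and 619 CPM in rescue (-1.15 ± 0.16, adjusted p = 6.2e-05). Itgav, integrin alpha V, which binds fibronectin, was at 827 and 735 CPM in NT2, 291 and 297 CPM in knockdown and 282 and 358 CPM in rescue (-1.31 ± 0.18, adjusted p = 7.6e-05). Vcl, vinculin (-1.10 ± 0.15, adjusted p = 7.7e-05), Tpm1, a tropomyosin (-0.81 ± 0.13, adjusted p = 0.00021), and Vim, the intermediate filament protein vimentin (-0.83 ± 0.11, adjusted p = 6.6e-05), were called lower too. Plec, the cytolinker plectin, was the 1 that rose, with 2673 and 2625 CPM in NT2, 4407 and 4862 CPM in knockdown and 4417 and 4073 CPM in rescue (0.68 ± 0.10, adjusted p = 0.00014). Acta2, smooth muscle actin and a mark of contractile fibroblasts, was low after knockdown, and its rescue libraries overlapped NT2, with 1127 and 983 CPM in NT2, 532 and 519.6 CPM in knockdown and 1348 and 1108 CPM in rescue. Its difference from knockdown was 1.23 ± 0.17 (adjusted p = 0.0012), and its difference from NT2 was 0.23 ± 0.14 (adjusted p = 0.21), not called. The fit of all 14 libraries did not call Actb (adjusted p = 0.063), Vim (0.053) or Plec (0.061). Against NT none of the 26 fell and 2 rose, with a median of 0.02, and Actb, Zyx, Itgav, Vim and Plec were not called (adjusted p = 0.13 to 0.89).

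Cytosolic ribosomal protein transcripts, which encode the protein part of the ribosome, gave many falls. Of 51 listed, 33 fell and none rose, with a median of -0.65, beside 299 falls among the 1399 transcripts (21.4%) and 285 among the 1049 outside the NT-high set (27.2%). Knockdown had 25 falls, no rise and a median of -0.43, and 1 of the 51 (Rpl5, -0.47 ± 0.12, adjusted p = 0.038) was called between rescue and knockdown. No member was in the NT-high set. With that set left out, 21 fell and none rose, and over all alternatives that keep NT2 as the control 17 (DESeq2) to 42 (total-count scaling) fell and none rose. Their summed level was 68057 and 67334 CPM in NT2, 49691 and 49498 CPM in knockdown, and 45585 and 44335 CPM in rescue. Rpl12, of the large subunit, had 1818 and 1835 CPM in NT2, 813 and 989.7 CPM in knockdown and 770.5 and 570.3 CPM in rescue (-1.43 ± 0.16, adjusted p = 1.1e-05). Rpl36a had 555 and 598 CPM in NT2, 231 and 223 CPM in knockdown and 179.8 and 163 CPM in rescue (-1.73 ± 0.22, adjusted p = 3.4e-05). Rpl6 had 1948 and 2212 CPM in NT2, 1074 and 1126 CPM in knockdown and 1002 and 815 CPM in rescue (-1.18 ± 0.15, adjusted p = 3.2e-05). In each the rescue libraries were the lowest of the 3 groups and did not overlap NT2. Not every member moved: Rpl4 had 3403 and 3359.8 CPM in NT2 and 3095 and 3585 CPM in rescue (-0.02 ± 0.11, adjusted p = 0.89). Ribosomal protein genes have many processed pseudogenes, and how the authors' counting split reads between near-identical copies is not given in the sources used here. Against NT, 2 of the 51 rose and none fell, and the log2 fold changes of Rpl23a (0.44) and Rpl36a (0.28) were above 0.

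Of 14 translation factors 6 fell and none rose, with a median of -0.36, and DESeq2 called 3 falls and total-count scaling 11. None of the 14 was NT-high, and 27.2% of the transcripts outside that set fell. Eef1a1, the elongation factor that brings tRNA to the ribosome, had 10329 and 10670.4 CPM in NT2, 5983 and 6025 CPM in knockdown and 5278 and 5621 CPM in rescue (-0.95 ± 0.08, adjusted p = 1.1e-06). Pabpc1, the cytoplasmic poly(A)-binding protein, had 2492 and 2549 CPM in NT2, 1867 and 2029 CPM in knockdown and 1361 and 1466 CPM in rescue (-0.84 ± 0.12, adjusted p = 8.7e-05). Eef1b2 (-0.93 ± 0.18, adjusted p = 0.00093) and the helicase Eif4a1 (-0.60 ± 0.12, adjusted p = 0.0017) fell in the same comparison. Eif4b (-0.70 ± 0.15, adjusted p = 0.018) and Eif3d (-0.80 ± 0.21, adjusted p = 0.047) were called lower in rescue than in knockdown, while their differences from NT2 were not called (-0.25 ± 0.15, adjusted p = 0.19 and -0.35 ± 0.20, adjusted p = 0.21). The Eif3d call was lost without any 1 of the 4 libraries concerned (adjusted p = 0.059 to 0.21) and with the NT-high transcripts left out (0.074). Against NT the log2 fold changes of Eef1a1 (0.21) and Pabpc1 (0.096) were above 0.

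Many chaperone transcripts were lower in rescue than in NT2, and 4 chaperones (Hspa5, Hspa8, Hsp90aa1 and Hsp90ab1) were lower than in knockdown. Of 10 chaperones of the endoplasmic reticulum, which fold secreted proteins such as collagen, 7 fell and none rose in rescue (median -0.51), where knockdown had 4 falls. None of the 10 was NT-high, and 27.2% of the transcripts outside that set fell in rescue. Pdia4, a disulfide isomerase, had 634 and 694 CPM in NT2, 432 and 421 CPM in knockdown and 334 and 293 CPM in rescue (-1.07 ± 0.21, adjusted p = 0.001). Pdia3 had 963 and 914 CPM in NT2, 663 and 854 CPM in knockdown and 565 and 407 CPM in rescue (-0.93 ± 0.18, adjusted p = 0.0012). Hspa5, the BiP chaperone, was at 3590.3 and 3628 CPM in NT2 and 4256 and 4095 CPM in knockdown and fell to 2761 and 2607 CPM in rescue (-0.43 ± 0.10, adjusted p = 0.0053 over NT2, -0.64 ± 0.11, adjusted p = 0.005 over knockdown). With the NT-high transcripts left out 3 of the 10 fell, and Hspa5 was not among them (adjusted p = 0.25 over NT2); DESeq2 called 2 falls, and without rescue replicate 1 there were 4. Against NT the log2 fold changes of Pdia4 (0.59), Pdia3 (0.36) and Hspa5 (0.63) were above 0, and none of the 10 was called.

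Of 13 cytosolic and mitochondrial heat shock chaperones 6 fell and 1 rose (median -0.32), where knockdown had 1 fall and 3 rises (0.02). In rescue, transcripts outside the NT-high set, where all 13 belong, had 27.2% falls and 8.1% rises. Hspa8, the constitutive Hsc70 chaperone that also targets proteins to lysosomes, had 5555 and 5627 CPM in NT2, 5632 and 5679 CPM in knockdown and 3300.1 and 3145 CPM in rescue. NT2 and knockdown were not called apart (0.02 ± 0.09, adjusted p = 0.89), and rescue lay below both (-0.79 ± 0.09, adjusted p = 1.6e-05 and -0.81 ± 0.09, adjusted p = 0.00034). Hsp90aa1, the inducible Hsp90, showed another order, with 1976 and 2020.0 CPM in NT2, 3564 and 3823 CPM in knockdown and 2055 and 2118 CPM in rescue. It rose after knockdown (0.88 ± 0.10, adjusted p = 1.6e-05), and rescue was below knockdown (-0.82 ± 0.11, adjusted p = 0.00098) and not called against NT2 (0.06 ± 0.11, adjusted p = 0.7, 95% interval -0.18 to 0.30). Hsph1, an Hsp110 co-chaperone, stayed up, with 589 and 666 CPM in NT2, 1034 and 1348 CPM in knockdown and 925 and 1092 CPM in rescue (0.68 ± 0.17, adjusted p = 0.0056). Cct4, a subunit of the chaperonin that folds actin and tubulin, fell (-0.84 ± 0.19, adjusted p = 0.0032). With the NT-high transcripts left out 2 of the 13 fell and 4 rose, DESeq2 called 1 fall and the fit without rescue replicate 2 called 3, and the Hsph1 call over NT2 was lost without rescue replicate 2 (adjusted p = 0.06). The fit of all 14 libraries called neither Hspa8 (0.44) nor Hsp90aa1 (0.23) between rescue and knockdown, nor Hspa8 against NT2 (0.17), and against NT the log2 fold changes of Hspa8 (0.04) and Cct4 (0.89) were above 0.

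Sqstm1 was high in the rescue libraries as well as after knockdown. It encodes p62, the receptor that brings ubiquitinated cargo to autophagosomes, and is a target of the stress factors Nrf2 and TFEB. Its level was 527 and 399 CPM in NT2, 2028 and 2128 CPM in knockdown and 1451 and 1499 CPM in rescue. The 3 groups did not overlap, with rescue between the others but nearer to knockdown. Rescue was 1.66 ± 0.16 (adjusted p = 2e-06) over NT2 and knockdown 2.15 ± 0.14 (adjusted p = 1.2e-07), and the difference between rescue and knockdown was not called (-0.49 ± 0.14, adjusted p = 0.061). No alternative tried ended the call over NT2.

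The promoters of Sqstm1 and of Rnf213, a gene that moved from below NT2 after knockdown to above it in rescue, are printed as the 2 contrasting patterns. Both are from the same RefSeq table, Sqstm1 at chr11:50210771-50211070 on the minus strand and Rnf213 at chr11:119389849-119390148 on the plus strand of GRCm38.p6. Capitals mark TATAAA, the TATA box, and GGGCGG on either strand (CCGCCC on the other).
Sqstm1: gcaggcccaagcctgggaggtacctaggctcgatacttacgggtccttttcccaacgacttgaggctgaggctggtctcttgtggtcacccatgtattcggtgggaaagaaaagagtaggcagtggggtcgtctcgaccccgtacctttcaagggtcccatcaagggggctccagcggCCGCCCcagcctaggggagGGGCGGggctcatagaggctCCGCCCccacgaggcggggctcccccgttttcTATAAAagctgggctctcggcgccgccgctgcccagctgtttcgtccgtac
Rnf213: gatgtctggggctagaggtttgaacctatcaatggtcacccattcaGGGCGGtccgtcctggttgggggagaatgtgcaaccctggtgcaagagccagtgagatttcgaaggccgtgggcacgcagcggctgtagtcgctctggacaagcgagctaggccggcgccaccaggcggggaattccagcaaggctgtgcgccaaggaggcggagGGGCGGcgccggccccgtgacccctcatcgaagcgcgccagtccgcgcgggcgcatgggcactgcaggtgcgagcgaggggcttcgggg
The Sqstm1 window holds TATAAA at 1 place and GGGCGG at 3, and the Rnf213 window holds GGGCGG at 2. TATAAA was in 13.6% of the 32851 promoters and in 7.51% of those of listed genes. The letters CACGTG (an E-box, in 7.15% of promoters and 10.5% of those of listed genes) and TGANNNNGC (a loose form of the antioxidant response element core, 41.3%) were in none of the 3 windows printed. Both strands were searched. Sequence outside the windows was not, so sites elsewhere in these genes would be missed.

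The lysosomal, iron and redox lists are short, and their calls stand beside 41.3% called over all 1399 transcripts. Of 6 lysosome and autophagy genes, Sqstm1 and Fnip2 rose and Lamp1 fell. Lamp1, a lysosomal membrane glycoprotein, had 1925 and 2096 CPM in NT2, 1516 and 1868 CPM in knockdown and 1361 and 1532 CPM in rescue (-0.48 ± 0.14, adjusted p = 0.013). Fnip2, a folliculin partner in nutrient signalling and an NT-high transcript, had 119 and 131 CPM in NT2 and 257 and 212 CPM in rescue (0.92 ± 0.34, adjusted p = 0.042). The lysosomal enzymes Ctsa (-0.06 ± 0.21, adjusted p = 0.87) and Ctsl (-0.51 ± 0.21, adjusted p = 0.068) were not called. Of 6 ferroptosis, iron and redox genes, Fth1 and Abcc1 rose and none fell. Fth1, an iron storage protein, had 1688 and 1271 CPM in NT2, 1717 and 1584 CPM in knockdown and 2260.0 and 1776 CPM in rescue (0.45 ± 0.16, adjusted p = 0.036). Abcc1, an exporter of glutathione conjugates, had 187 and 144 CPM in NT2, 271 and 210.3 CPM in knockdown and 334 and 358 CPM in rescue (1.04 ± 0.27, adjusted p = 0.0076). Gpx4, the lipid peroxide reductase that restrains ferroptosis, had 283 and 268 CPM in NT2, 291 and 235 CPM in knockdown and 193 and 212 CPM in rescue, a difference from NT2 of -0.45 ± 0.28 (adjusted p = 0.23) with a 95% interval of -1.07 to 0.16. Calls were lost without 1 library for Fth1 (rescue replicate 1, adjusted p = 0.4; NT2 replicate 2, 0.25), Lamp1 (rescue replicate 1, 0.084; NT2 replicate 2, 0.068) and Fnip2 (each of the 4, 0.069 to 0.24). Lamp1 was not called with the NT-high transcripts left out (0.26). DESeq2 called none of Fth1 (0.12), Abcc1 (0.063), Lamp1 (0.21) or Fnip2 (0.22). Against NT, Lamp1 was called in the opposite direction, with a log2 fold change of 1.47 (adjusted p = 0.014). Fnip2, at -0.71, was not called against NT (0.47). Of the 6 lysosome and autophagy genes 3 rose and none fell against NT, with a median of 1.13.

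Genes of the amino acid response gave few calls, beside 41.3% called over all 1399 transcripts. Atf4, the transcription factor that amino acid shortage induces through translation, had 889 and 866 CPM in NT2, 703 and 581 CPM in knockdown and 424 and 456 CPM in rescue. It fell in rescue (-1.0 ± 0.17, adjusted p = 0.00036) and in knockdown (-0.44 ± 0.15, adjusted p = 0.027), with rescue the lowest of the 3 groups and no call between rescue and knockdown (-0.56 ± 0.19, adjusted p = 0.12). Vegfa, a growth factor that Atf4 and hypoxia induce, was the other listed member of the stress list and rose, with 221 and 302 CPM in NT2, 402 and 322 CPM in knockdown and 693 and 489 CPM in rescue (1.21 ± 0.24, adjusted p = 0.0013). Of 4 amino acid transporters 1 fell, Slc38a2, a glutamine carrier (-0.72 ± 0.19, adjusted p = 0.0077). Slc3a2, the heavy chain shared by the cystine importer, was not called (0.49 ± 0.28, adjusted p = 0.19). Of 5 enzymes of serine, one-carbon, proline and glutamine metabolism 1 fell, Aldh18a1 of proline synthesis (-0.65 ± 0.23, adjusted p = 0.04), and Phgdh, which starts serine synthesis, was not called (-0.52 ± 0.21, adjusted p = 0.066). None of 8 aminoacyl-tRNA synthetases was called, with a median of -0.04. The calls of Slc38a2 and Aldh18a1 were lost with the NT-high transcripts left out (adjusted p = 0.097 and 0.27) and in DESeq2 (0.18 and 0.37). They were also lost without 1 library, Slc38a2 without NT2 replicate 1 (0.074) or rescue replicate 1 (0.071), and Aldh18a1 without NT2 replicate 1 (0.19), NT2 replicate 2 (0.081) or rescue replicate 1 (0.35). Against NT, Atf4 (-0.44, adjusted p = 0.62) and Vegfa (1.28, adjusted p = 0.12) were not called, and the log2 fold change of Slc38a2 was 0.41. With NT and NT2 averaged, Atf4 was not called either (adjusted p = 0.15).

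Rnf213 separated all 3 groups in an order of its own. It encodes a giant ubiquitin ligase with an ATPase motor that coats lipid droplets and intracellular bacteria and is induced by interferon. Its level was 3075 and 2886 CPM in NT2, 1144 and 1126 CPM in knockdown and 4546 and 4921 CPM in rescue. Knockdown lay below NT2 (-1.39 ± 0.12, adjusted p = 1e-06) and rescue above it (0.66 ± 0.11, adjusted p = 0.00022), so that rescue exceeded knockdown by 2.06 ± 0.12 (adjusted p = 3.8e-07), the largest difference between those 2 groups after Postn. The call over NT2 held in each alternative tried. Ccdc80, a secreted matrix protein, was low after knockdown and slightly above NT2 in rescue, with 385 and 433 CPM in NT2, 201 and 86.6 CPM in knockdown and 462 and 473 CPM in rescue (1.64 ± 0.35, adjusted p = 0.017 over knockdown, 0.20 ± 0.27, adjusted p = 0.6 over NT2, not called). Csf1, the macrophage growth factor, had the same order, with 589 and 584 CPM in NT2, 392 and 198 CPM in knockdown and 732 and 684 CPM in rescue (1.22 ± 0.25, adjusted p = 0.014 and 0.28 ± 0.20, adjusted p = 0.29). Socs1, a cytokine signalling inhibitor and the other listed member of the interferon list, rose on 8 counts in rescue and 4 in NT2 (2.12 ± 0.80, adjusted p = 0.049), and that call was lost without NT2 replicate 1 (adjusted p = 0.26) or rescue replicate 2 (0.28).

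**Figure D4:**
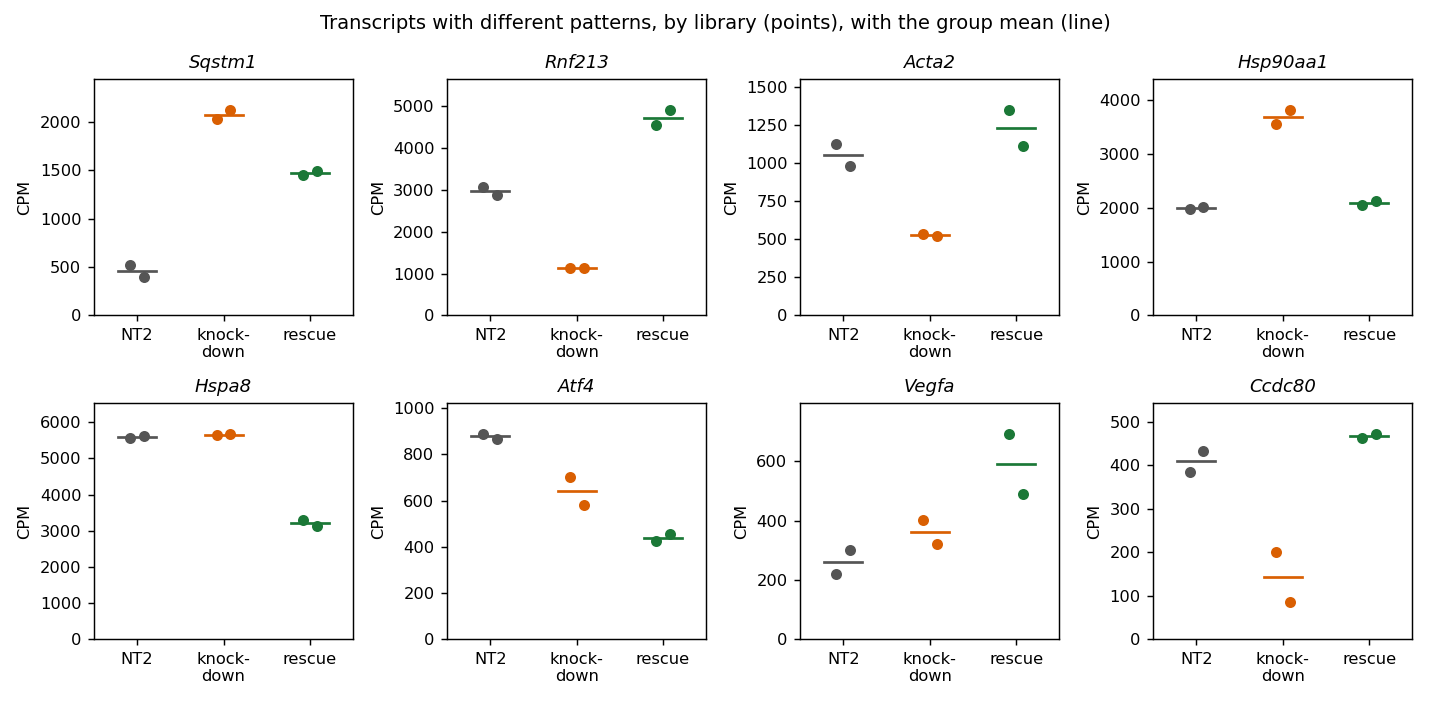
Levels of 8 transcripts in CPM on linear axes from 0, with 1 point per library and a line at the group mean, for NT2, knockdown and rescue. In rescue, Sqstm1 stays above NT2, Rnf213 passes it, Ccdc80 lies slightly above it without a call, and Acta2 overlaps it. Hsp90aa1 is highest after knockdown, Hspa8 and Atf4 are lowest in rescue, and Vegfa is highest in rescue.

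The direct difference between rescue and knockdown, 58 transcripts (4.15%), included matrix genes on the high side and chaperones on the low side. Of the 13 collagen and collagen-modifying genes 5 rose over knockdown (Col1a1, Col1a2, Col3a1, Col6a1 and Col6a2) and none fell, beside 2.93% rises over all transcripts, and their median was 0.89. Of the 13 matricellular genes 5 rose (Fn1, Thbs1, Sparc, Timp3 and Postn) and none fell. Of the 13 heat shock chaperones 3 fell (Hspa8, Hsp90aa1 and Hsp90ab1), beside 1.22% falls overall. Of the 26 contractile and adhesion genes 3 fell and 1, Acta2, rose. Polr2a, the largest subunit of RNA polymerase II, had 1314 and 1229.9 CPM in NT2, 1365 and 1311 CPM in knockdown and 745 and 701 CPM in rescue, the lowest of the 3 (-0.89 ± 0.14, adjusted p = 0.0041 over knockdown, -0.81 ± 0.14, adjusted p = 0.00035 over NT2). Tubb5, a beta-tubulin, fell stepwise, with 2911 and 2673 CPM in NT2, 2138 and 1831 CPM in knockdown and 1361 and 1222 CPM in rescue (-0.62 ± 0.14, adjusted p = 0.025 over knockdown). Lrrc59, a ribosome receptor of the endoplasmic reticulum, was at 994 and 1089 CPM in knockdown and 591 and 619 CPM in rescue (-0.78 ± 0.19, adjusted p = 0.036), and Nup155, a nuclear pore protein, at 412 and 433 CPM and 193 and 196 CPM (-1.12 ± 0.28, adjusted p = 0.038). This comparison rests on fewer calls than the others: without 1 library, 16 to 36 rose and 5 to 9 fell, the fit of all 14 libraries called 9 rises and no fall (edgeR; 84 and 70 at an unadjusted p under 0.05), and DESeq2 called 20 and 3. Lrrc59 and Nup155 lost their calls without any 1 of the 4 libraries (adjusted p = 0.068 to 0.2 and 0.11 to 0.2), and Ccdc80 without rescue replicate 1 (0.067) or knockdown replicate 2 (0.083).

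**Figure D5:**
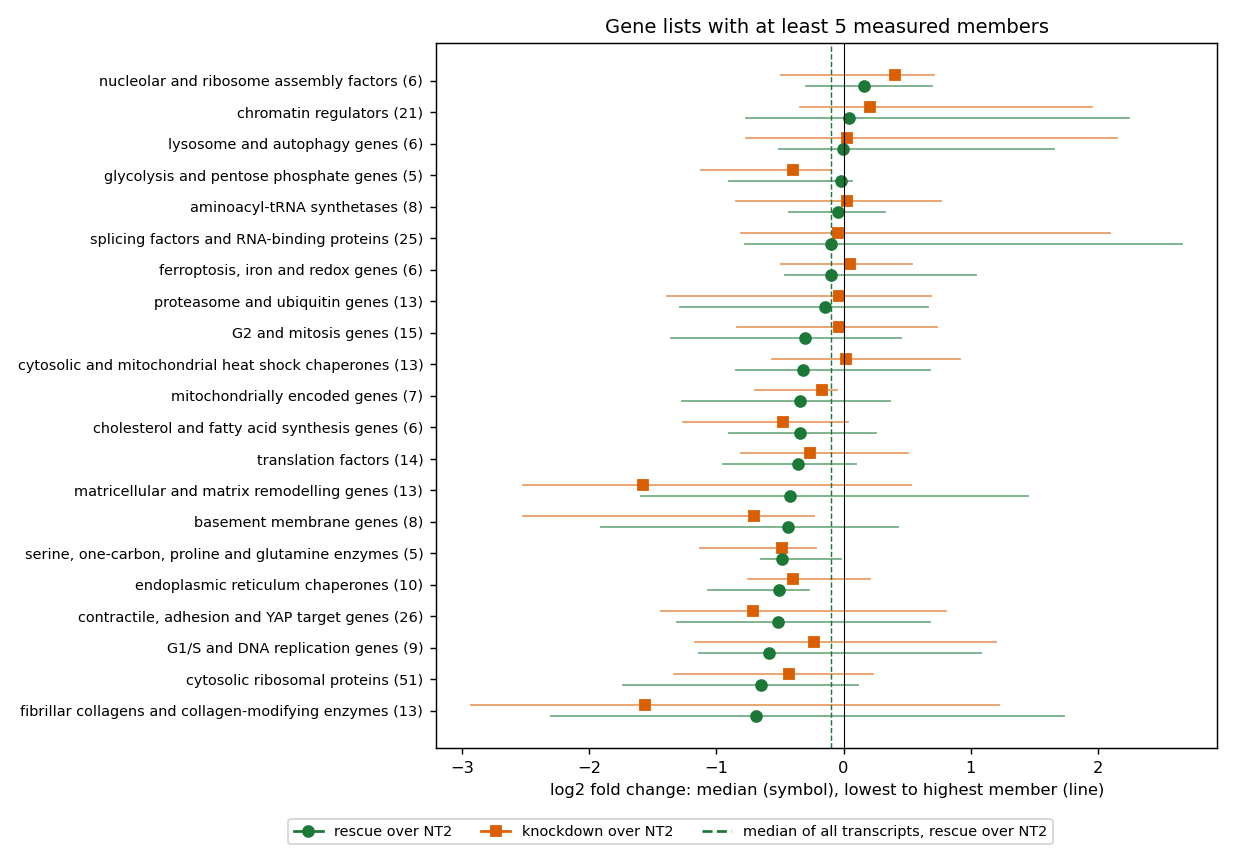
Log2 fold change of each gene list with at least 5 listed members, as the median (symbol) and the lowest to highest member (line), for rescue over NT2 (circles) and knockdown over NT2 (squares), which share the NT2 libraries. The dashed line is the median of all transcripts in rescue over NT2, -0.10, and the collagen, ribosomal protein and endoplasmic reticulum chaperone medians lie to its left at -0.69, -0.65 and -0.51.

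Cell cycle lists were mixed, beside 21.4% falls and 19.9% rises over all 1399 transcripts. Of 9 genes of G1/S and DNA replication 4 fell and 2 rose (median -0.58), with 2 (DESeq2) to 6 (total-count scaling) falls over the alternatives that keep NT2, and 2 falls without rescue replicate 2. Cdk4, the cyclin D kinase, had 668 and 659.6 CPM in NT2, 251 and 346 CPM in knockdown and 334 and 261 CPM in rescue (-1.14 ± 0.22, adjusted p = 0.00083), and Rrm1, the large subunit of ribonucleotide reductase, had 1195 and 983 CPM, 522 and 532 CPM and 616 and 424 CPM in the same order (-1.05 ± 0.20, adjusted p = 0.00082). In both the rescue and knockdown libraries overlapped. Ccnd1, cyclin D1 and a partner of Cdk4, rose, with 147 and 213 CPM in NT2, 191 and 161 CPM in knockdown and 347 and 326 CPM in rescue (0.92 ± 0.29, adjusted p = 0.022). The other rise was Pole, a replicative polymerase and an NT-high transcript (1.08 ± 0.24, adjusted p = 0.0025). Of 15 genes of G2 and mitosis 2 fell, Tubb5 (-1.11 ± 0.13, adjusted p = 1.9e-05) and Aurkb, the Aurora B kinase (-1.36 ± 0.41, adjusted p = 0.017), and 1 rose, Cenpf, a kinetochore protein (0.45 ± 0.16, adjusted p = 0.041). The falls among these 15 ranged from 1 (mean count of at least 20) to 7 (total-count scaling) over the alternatives that keep NT2, and from 1 to 3 without 1 library. Mki67, the proliferation antigen, was not called (-0.03 ± 0.15, adjusted p = 0.87). Calls were lost without 1 library for Aurkb (rescue replicate 1, adjusted p = 0.17; NT2 replicate 2, 0.053) and Cenpf (NT2 replicate 1, 0.18; rescue replicate 1, 0.55), and against NT the log2 fold changes of Cdk4 (0.78) and Rrm1 (0.02) were above 0 and that of Pole (-0.45) below it.

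Nuclear RNA and chromatin genes moved in both directions, beside 21.4% falls and 19.9% rises over all 1399 transcripts. Of 25 splicing factors and RNA-binding proteins 9 fell and 3 rose; with the NT-high transcripts left out 2 fell and 5 rose, and without rescue replicate 2 there were 4 falls. Prpf8, a core spliceosome protein, had 1863 and 1828 CPM in NT2, 1295 and 1287 CPM in knockdown and 1079 and 1075 CPM in rescue (-0.78 ± 0.12, adjusted p = 0.0002), and the helicase Ddx5 had 1852 and 1752 CPM, 1466 and 1287 CPM and 1079 and 1026 CPM in the same order (-0.77 ± 0.14, adjusted p = 0.00054). Srrm2, a scaffold of nuclear speckles, rose, with 2452 and 2735 CPM in NT2, 4246 and 4132 CPM in knockdown and 3634 and 3471 CPM in rescue (0.46 ± 0.11, adjusted p = 0.0035), a call that total-count scaling (adjusted p = 0.1) and the fit of all 14 libraries (0.14) did not make. Of 21 chromatin regulators 3 rose (Kmt2d, Brd2 and Bcor) and 2 fell (Smarcc1 and Chd4), with 5 rises and no fall when the NT-high transcripts were left out and no fall without rescue replicate 2. Kmt2d, an H3K4 methyltransferase, had 957 and 1031 CPM in NT2, 1978 and 2017 CPM in knockdown and 1965 and 1743 CPM in rescue (0.91 ± 0.13, adjusted p = 6.8e-05 over NT2). Brd2, a bromodomain protein, rose (0.54 ± 0.15, adjusted p = 0.01) but not without NT2 replicate 1 (0.1) or rescue replicate 2 (0.063). Bcor, a corepressor and an NT-high transcript, rose (2.25 ± 0.20, adjusted p = 1.5e-06). Ncl, nucleolin, had 2401 and 2260.5 CPM in NT2, 3724 and 3934 CPM in knockdown and 3788 and 3748 CPM in rescue (0.69 ± 0.10, adjusted p = 0.00013), the 1 call among 6 nucleolar and ribosome assembly factors. Against NT the log2 fold changes of Prpf8 (0.07) and Ddx5 (0.41) were above 0, and that of Bcor (-0.85) was below it.

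Metabolic lists differed in how many members were called, beside 41.3% called over all 1399 transcripts. Of 7 mitochondrially encoded genes 4 fell and 1 rose (median -0.34), with 2 falls without NT2 replicate 1 and 1 without rescue replicate 2. mt-Atp6, a subunit of ATP synthase, had 4797 and 4198 CPM in NT2, 3152 and 2388 CPM in knockdown and 2889 and 2574 CPM in rescue (-0.72 ± 0.14, adjusted p = 0.00096), and mt-Nd5, of complex I, was the 1 that rose (0.36 ± 0.13, adjusted p = 0.042), a call lost without NT2 replicate 1, NT2 replicate 2 or rescue replicate 1. Gapdh, the glycolytic dehydrogenase, had 1382 and 1354 CPM in NT2, 693 and 557 CPM in knockdown and 719 and 749.5 CPM in rescue (-0.90 ± 0.15, adjusted p = 0.00027), the 1 call among 5 glycolysis genes. Pkm, pyruvate kinase, had 2933 and 2645 CPM in NT2 and 3095 and 2754 CPM in rescue, a difference of 0.07 ± 0.12 (adjusted p = 0.68) with a 95% interval of -0.18 to 0.32. Of 6 genes of cholesterol and fatty acid synthesis 2 fell. Scd2, the stearoyl-CoA desaturase that makes monounsaturated fatty acids, had 3398 and 2824 CPM in NT2, 1325 and 1262 CPM in knockdown and 1734 and 1597 CPM in rescue (-0.90 ± 0.14, adjusted p = 0.00021). Fasn, fatty acid synthase, had 1840.5 and 1690.2 CPM in NT2, 1235 and 1534 CPM in knockdown and 1143 and 1157 CPM in rescue (-0.62 ± 0.14, adjusted p = 0.003), a call lost with the NT-high transcripts left out (adjusted p = 0.055). Ubb, a polyubiquitin gene, fell as well, with 776 and 879 CPM in NT2, 502 and 631 CPM in knockdown and 347 and 326 CPM in rescue (-1.29 ± 0.19, adjusted p = 9.8e-05), the 1 fall among 13 proteasome and ubiquitin genes. Against NT, 4 of the 7 mitochondrial genes rose, and the log2 fold changes of mt-Atp6 (0.61), Scd2 (0.83) and Fasn (0.40) were above 0.

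The highest log2 fold changes outside the NT-high set included membrane and metabolic genes. Mall, a MAL-like membrane protein, had 17 and 13.7 CPM in NT2, 301 and 111 CPM in knockdown and 385 and 261 CPM in rescue (4.31 ± 0.63, adjusted p = 0.0001). Acox3, a peroxisomal acyl-CoA oxidase, had 34.0 and 68.7 CPM in NT2, 542 and 470.1 CPM in knockdown and 963 and 603 CPM in rescue (3.97 ± 0.35, adjusted p = 1.1e-06). Tenm4, a teneurin cell adhesion protein, had 45.3 and 61.8 CPM in NT2, 452 and 482 CPM in knockdown and 770.5 and 733 CPM in rescue (3.81 ± 0.28, adjusted p = 2e-07). In these 3 the knockdown libraries were also high, and the difference between rescue and knockdown was not called (0.62 ± 0.44, adjusted p = 0.46, 0.64 ± 0.26, adjusted p = 0.18 and 0.69 ± 0.21, adjusted p = 0.082). Their cysteamine libraries had 95.9 and 37.2 CPM (Mall), 148 and 112 CPM (Acox3) and 133 and 161 CPM (Tenm4). The means of these 3 thus rose from NT2 through cysteamine and knockdown to rescue, the order of the NT-high share (17.5% and 16.4% in cysteamine). Whether they move with that set was not tested. Rapgef4, a cAMP-regulated exchange factor (3.86 ± 0.48, adjusted p = 2.6e-05), Ubxn8 (2.59 ± 0.31, adjusted p = 1.8e-05), Sltm, a regulator of transcription (2.40 ± 0.20, adjusted p = 7e-07), and Abca16, an ABC transporter (3.14 ± 0.26, adjusted p = 7e-07), rose likewise. Nexn, an actin-binding protein, stood apart in that knockdown was not called against NT2 (0.73 ± 0.46, adjusted p = 0.27), with 45.3 and 48.1 CPM in NT2, 70.3 and 86.6 CPM in knockdown and 193 and 163 CPM in rescue (1.92 ± 0.40, adjusted p = 0.0017). Aatk rose (4.01 ± 1.26, adjusted p = 0.021), but its second library was the higher one in each group, with 11.3 and 61.8 CPM in NT2 and 103 and 1108 CPM in rescue, and the call was lost without NT2 replicate 1 (adjusted p = 0.13) or rescue replicate 2 (0.53). Igsf10 (3.33 ± 0.65, adjusted p = 0.001) and Xdh, xanthine dehydrogenase (2.67 ± 0.56, adjusted p = 0.0018), lost theirs without rescue replicate 1 (0.056 and 0.063). Against NT, Mall, Acox3, Rapgef4, Ubxn8, Abca16 and Nexn were not called (0.06 to 0.66).

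The lowest values outside that set, after Lox, included several membrane and adhesion genes. Slc18a2, a vesicular monoamine transporter, had 2916 and 2467 CPM in NT2, 522 and 544 CPM in knockdown and 706 and 831 CPM in rescue (-1.82 ± 0.15, adjusted p = 7e-07). Ppfibp1, a liprin, had 1506 and 1319 CPM in NT2, 392 and 408 CPM in knockdown and 398 and 391 CPM in rescue (-1.84 ± 0.16, adjusted p = 7e-07). Adamts5, an aggrecan-cleaving protease, had 815 and 763 CPM in NT2, 291 and 359 CPM in knockdown and 218 and 212 CPM in rescue (-1.87 ± 0.24, adjusted p = 3.8e-05). Met, the receptor of hepatocyte growth factor (-1.76 ± 0.28, adjusted p = 0.0002), Cdh3, P-cadherin (-1.83 ± 0.26, adjusted p = 7.7e-05), Lrrn4 (-2.22 ± 0.23, adjusted p = 5.5e-06) and Strap, a regulator of TGF-beta signalling (-2.22 ± 0.38, adjusted p = 0.00038), fell too. In none of these 7 was rescue called against knockdown. Against NT none of the 7 was called, with log2 fold changes of -1.74 (Strap) to -0.23 (Lrrn4).

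Within the NT-high set the rises were large and included genes of other tissues. Luc7l2, a splicing factor, had 14169 and 12848 CPM in NT2, 59960.0 and 55684 CPM in knockdown and 90592 and 80360.4 CPM in rescue (2.66 ± 0.08, adjusted p = 5.4e-11). Pigl, of glycosylphosphatidylinositol synthesis (2.82 ± 0.10, adjusted p = 1.5e-10), and Pglyrp3, a peptidoglycan recognition protein (3.02 ± 0.11, adjusted p = 3.2e-10), rose with it, and all 3 were also higher in rescue than in knockdown (0.56 ± 0.07, adjusted p = 0.00098, 0.37 ± 0.09, adjusted p = 0.037 and 0.50 ± 0.10, adjusted p = 0.015). Ctrb1, pancreatic chymotrypsinogen, had 17 and 20.6 CPM in NT2, 331 and 470.1 CPM in knockdown and 578 and 538 CPM in rescue (4.83 ± 0.40, adjusted p = 6.5e-07). Ttn, the giant muscle protein titin, had 142 and 275 CPM in NT2, 612 and 557 CPM in knockdown and 770.5 and 978 CPM in rescue (2.09 ± 0.26, adjusted p = 2.9e-05), and Cdh1, E-cadherin, was not called (1.56 ± 0.84, adjusted p = 0.16). Each of these was the 1 listed marker of its tissue's list. Gpr162, Nyap2 and Fgl1 had 3 counts each in NT2 against 31, 28 and 24 in rescue, ratios after scaling of 23.9 (95% interval 7.46 to 122), 21.6 (6.67 to 111) and 18.5 (5.62 to 96.0), which cover counting error only. Falls were fewer: Thbs2, thrombospondin 2 (-1.59 ± 0.23, adjusted p = 0.0001), Shroom3, an actin regulator (-1.39 ± 0.22, adjusted p = 0.00022), Zfpm1 (-1.59 ± 0.29, adjusted p = 0.00068) and Sema3d, a semaphorin (-2.56 ± 0.65, adjusted p = 0.0066), were called lower. Against NT the log2 fold changes of Luc7l2 (-2.61), Ctrb1 (-0.09) and Ttn (-0.12) were below 0; the set was chosen for high shares in NT.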

How the data were processed

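Messenger RNA isolated on oligo(dT) beads and cut from a gel as short fragments, per the labels' protocols, of mouse embryonic fibroblasts were sequenced in 14 libraries, 7 groups of 2 by their labels. The authors deposited whole numbers per Ensembl transcript, read here as raw counts, not normalized, in tables that list the same 1399 transcripts. The deposited data are named as CPM. They were treated as counts because the values are whole numbers and the library totals differ. Whether the values were scaled before deposit was not tested, and the fits and the intervals on counts rest on this reading. The smallest count is 1 in every library, so a fall to 0 cannot be seen and the totals are not depths. Tools in the submitters' processing notes, whose role and order are not stated, were STAR 2.7.10a, Bowtie 1.2.3, cutadapt 2.8 and bcl2fastq 2.20.0.422, with GRCm39 as the assembly. How reads were counted, with which annotation and with or without strand, is not given in the sources used here. No molecular identifiers are mentioned in the labels, so intervals on counts cover counting error only.

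Symbols came from GENCODE mouse release 21 and matched 1385 transcripts. Promoter sequences matched 1084 symbols in a RefSeq table. edgeR 4.0.16 in R 4.3.3 fitted the 8 libraries of NT2, cysteamine, knockdown and rescue with 1 mean per group, TMM scaling, no filter and 4 residual degrees of freedom. The remaining libraries, NT among them, were left out because an earlier fit of all libraries found their spread to be larger. The quasi-likelihood test was two-sided, and every adjusted p printed is from it, by the Benjamini-Hochberg method over all transcripts with a threshold of 0.05, unless another tool is named. The fit was tested on simulated counts. Alternatives were other scalings, a minimum mean count of 20, DESeq2 1.42.0, limma 3.58.1 on log2(CPM + 1), other sets of libraries, the NT-high transcripts left out, a replicate block, each library left out, and NT as the control.

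The comparison, its lists and its named transcripts were chosen with earlier results of these data known. Named transcripts were called transcripts whose groups were separated in every library and reached a mean of 10 CPM in either group, namely the 12 highest and 12 lowest outside the NT-high set, 6 and 6 inside it, the 8 most abundant per direction outside it, and 6 and 6 in rescue against knockdown; to these came, per list, the 4 lowest p at most, and a few stress genes. Acta2, Col6a1, Col6a3, P4ha1, Ltbp1, Vcl, Tpm1, Rpl4, Rpl5, Ctsa, Csf1, Ccnd1, Mki67, Pigl, Pglyrp3, mt-Nd5, Eif4b, Hsp90ab1 and Chd4 were outside this rule and were picked after their values were seen, as were the promoters and motifs. Rps6ka2, a kinase gene whose symbol begins like a ribosomal protein's, was taken out of that list after its value was seen; it was not called.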

Additional observations from a re-analysis of the deposited data

How the results depend on the processing

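The comparisons are limited by 2 libraries a group, by low counts and by the large share of the NT-high transcripts. For rescue against NT2 (279 rises, 299 falls), leaving out 1 library gave 219 to 242 rises and 227 to 268 falls. Leaving out the NT-high transcripts gave 154 and 161, 246 of them called in the same direction as with them. Total-count scaling gave 220 and 459, DESeq2 197 and 126, and all 14 libraries 261 and 180. NT in place of NT2 gave 55 and 100, and NT and NT2 averaged gave 75 and 32. For knockdown against NT2 (276 and 292), leaving out 1 library gave 199 to 222 rises and 214 to 259 falls, DESeq2 164 and 154, all 14 libraries 246 and 185, and leaving out the NT-high transcripts 177 and 203. For rescue against knockdown (41 and 17), leaving out 1 library gave 16 to 36 rises and 5 to 9 falls, scaling by DESeq2's size factors in edgeR 69 and 14, total counts 26 and 47, DESeq2 20 and 3, limma 47 and 34, all 14 libraries 9 and 0 (edgeR; 84 and 70 at an unadjusted p under 0.05), and only these 2 groups 7 and 3. The cause was not tested. Adding a replicate block gave 309 and 335, 329 and 331, and 113 and 39 in the 3 comparisons. Same-numbered libraries correlated in their deviations from group means by 0.129 (NT2 and knockdown), 0.171 (NT2 and rescue) and 0.249 (knockdown and rescue), and by 0.087 in NT2 and cysteamine. The labels give no meaning to the numbers and there are only 2, so they were not taken as pairs; a transcript not called between rescue and knockdown may be called with the block.

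No scaling, tool, filter or left-out library turned the sign of a called log2 fold change of a named transcript while NT2 was the control. With NT in place of NT2, 39 had the opposite sign: Ctrb1 -0.089, Nme9 -0.94, Fgl1 -0.49, Col6a2 0.55, Col1a1 0.27, Eef1a1 0.21, mt-Co1 1.2, Hspa8 0.043, Polr2a 0.58, Lrrc59 0.20, Slc38a2 0.41, Lamp1 1.47, Fnip2 -0.71, Pdia4 0.59, Pdia3 0.36, P4hb 0.21, Hspa5 0.63, Cct4 0.89, Lamc1 0.19, Igfbp4 0.012, Rrm1 0.020, Cdk4 0.78, Pole -0.45, Rpl23a 0.44, Rpl36a 0.28, Pabpc1 0.096, mt-Atp6 0.61, mt-Nd2 0.59, Psmc3 -1.09, Scd2 0.83, Fasn 0.40, Fdft1 -1.79, Socs1 -2.58, Luc7l2 -2.61, Prpf8 0.068, Ddx5 0.41, Hnrnpk 0.51, Bcor -0.85 and Ttn -0.12. With NT and NT2 averaged, 7 did: mt-Co1 0.49, Lamp1 0.54, Hspa5 0.15, Cct4 0.071, Psmc3 -0.25, Scd2 0.012 and Socs1 -0.21. Called in opposite directions against NT2 and against NT were mt-Co1 (adjusted p = 0.021 against NT), Lamp1 (0.014), Luc7l2 (0.012) and Socs1 (0.034). NT-high transcripts among the 39 include Luc7l2, Socs1, Ctrb1, Nme9, Fgl1, Fnip2, Pole, Bcor and Ttn. Their set was chosen for high shares in NT, which by itself favours lower values against NT. Fdft1 was called against NT (0.037) and not against NT2. The cause was not tested.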
